A study of Mus musculus with 22 samples.

Results

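Arterial smooth muscle of the heart was compared with arterial smooth muscle of the kidney in 6 of the 22 libraries of a mouse RNA-seq series: heart 1, 2 and 3 and kidney 1, 2 and 3, chosen by their tissue labels. The cells had been sorted by flow cytometry, and RNA of each sort, at most 10 ng, was amplified with the SMART-Seq v4 full-length cDNA kit for low inputs. The 16 libraries of aorta, lung, stomach, intestine and bladder entered the model to estimate the spread between libraries. All 6 libraries came from mice given tamoxifen at 0.75 mg per 10 g of body weight, injected into the peritoneum in corn oil for 3 days. Kidney mice carried Cspg4-Dre/Acta2-CreERT/R26-GFP. Heart mice carried Cspg4-DreERT/Acta2-CreERT/R26-GFP, in which the Dre recombinase has the tamoxifen-dependent ERT part. Tissue and this allele therefore cannot be told apart in any difference below. Acta2 (smooth muscle actin) drives Cre and Cspg4 (the NG2 proteoglycan of mural cells) drives Dre in these strains; the gate of the sort and the way in which the recombinases jointly open the reporter are not given in the sources used here. Neither are the age or sex of the mice. The labels do not say that libraries of a tissue are separate animals, so the error behind each p-value may be technical.

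Arterial smooth muscle narrows or widens a vessel through actin and smooth muscle myosin, under the control of calcium, receptors for nerve and hormone signals, and potassium channels that set the membrane potential. Coronary arteries feed the working heart, and much of their muscle is known to descend from the epicardium. Renal arterial muscle descends largely from the stroma of the embryonic kidney, adjusts filtration pressure, and in the wall of the afferent arteriole includes cells that make renin, the enzyme that starts the angiotensin cascade. Hox genes are transcription factors whose expressed set records the position of a tissue along the body axis.

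Values below are the deposited signal, a read count scaled per library, and values given as 3 numbers stand in the order of library 1, 2 and 3. Fold changes are on the log2(signal + 1) scale, heart minus kidney, with the standard error (SE) of limma. The added 1 understates changes of low genes, whereas a 0 in a library of few reads can overstate them. Of 16917 genes tested, 1541 (9.11%) passed the Benjamini-Hochberg adjusted p of 0.05 in limma, 387 (2.29%) higher in heart and 1154 (6.82%) higher in kidney. Depth was uneven. Each library's values were divided by a fitted step, the worth of 1 read. This gave an estimated 6469302, 7647467 and 817157 reads in heart and 12475326, 8268318 and 4943883 in kidney. In heart 3, the shallow library of the 6, 1 read is worth 8.09 units of signal and 5748 tested genes stood at 0. The aorta libraries, which enter the spread of the main test, were shallow too, at 629456, 1540366 and 1927765 reads. Of the genes higher in kidney, 952 were at 0 in heart 3, and in 273 of these heart 1 and 2 were both above 0. Without heart 3, 1081 genes (6.39%) passed, 311 (1.84%) higher in heart and 770 (4.55%) in kidney, and of the original calls 213 and 730 passed again. Fitted on the 6 libraries alone, 686 genes (4.06%) passed, 101 (0.597%) higher in heart and 585 (3.46%) in kidney. On rebuilt reads edgeR called 8.2% of the genes and DESeq2 14.2%. The median log2 fold change over all tested genes was -0.33, and -0.02 without heart 3. Across genes, heart 1 and 2 correlated at 0.94 and heart 3 with them at 0.824 and 0.819, and the kidney libraries correlated with each other at 0.904 to 0.932. Reads per base levelled off in highly covered genes. Of 16601 tested genes with an exonic length, 3114 reached 0.5 reads per exonic base in at least 1 of the 22 libraries. That library need not be of heart or kidney. For such genes, called near the ceiling below, the signal can also follow the worth of 1 read. Among them the median log2 fold change was 0.28, against -0.49 for the others, and they made up 221 of the 387 genes higher in heart and 165 of the 1154 higher in kidney.

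**Figure D1:**
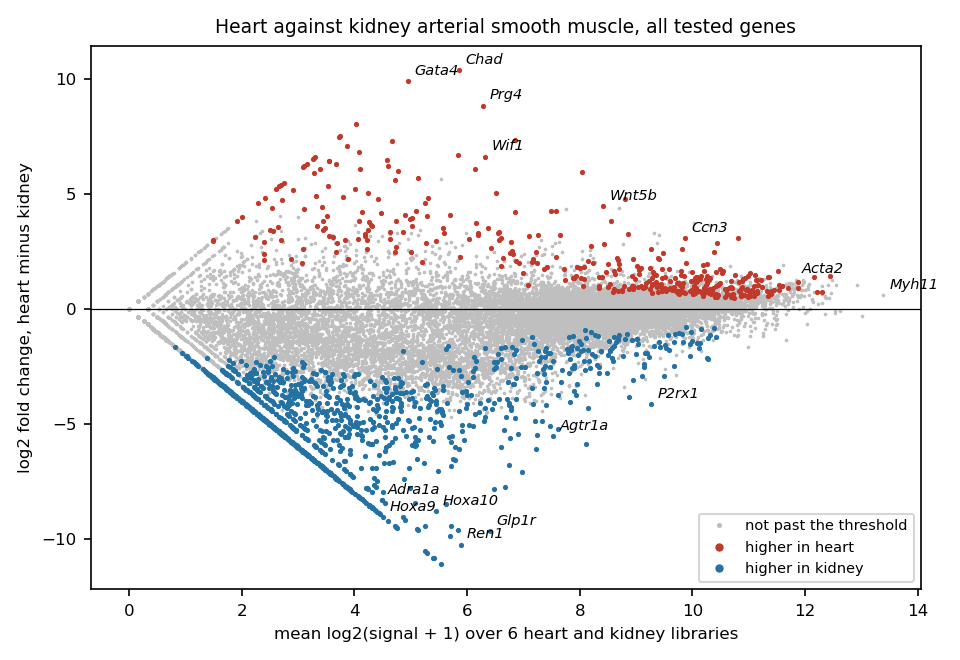
Log2 fold change of heart minus kidney (vertical axis) against the mean log2(signal + 1) over the 6 libraries (horizontal axis) for all 16917 tested genes, with genes past an adjusted p of 0.05 in colour. More points lie below 0 (1154 higher in kidney) than above it (387 higher in heart), and Chad and Gata4 mark the upper edge as Ren1 and Hoxa9 mark the lower side.

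Defining genes of arterial smooth muscle, the labelled cell type, were present in all 6 libraries. Acta2 (ENSMUSG00000035783, mm39 chromosome 19, 34218490 to 34232990), the actin of the contractile apparatus, was at 3309, 2822 and 19908 in heart and 1662, 2237 and 3440 in kidney. Heart 3 stood apart at 19908, although its reads, 2461, were fewer than the 3775 and 3691 of heart 1 and 2. The log2 fold change of Acta2 was 1.29 (SE 0.5, limma adjusted p = 0.115). Myh11, the smooth muscle myosin heavy chain, was at 8697, 8901 and 29802 in heart and 6075, 7853 and 13518 in kidney, with overlapping groups and a log2 difference of 0.61 (SE 0.5, limma adjusted p = 0.478). Cspg4 was at 992, 1486 and 1302 in heart and 2321, 65 and 2542 in kidney; kidney 2 lay far below its neighbours, and the fold change of 0.77 turned to -0.97 without it. Neither value of Cspg4 passed (limma adjusted p = 0.746 with all libraries and 0.584 without kidney 2).

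Of 35 contractile genes 2 passed, both higher in heart, 5.71% of the list beside 9.11% of all tested genes. The list's median log2 fold change was 0.52, with 25 of the 35 near the ceiling. Actg2, the gamma actin of visceral smooth muscle, was at 1613, 1227 and 2330 in heart and 273, 428 and 235 in kidney. The groups lay far apart, 5.5-fold on the log2(signal + 1) scale (2.46, SE 0.29, limma adjusted p = 7.95e-06). Cnn2, a calponin that binds actin, was at 2514, 2161 and 4579 against 1364, 1922 and 2003, a log2 difference of 0.75 (limma adjusted p = 0.0372) that did not pass without heart 3 (adjusted p = 0.199) or without kidney 1 (adjusted p = 0.194). Flna, the actin cross-linker filamin A, was at 4325, 5843 and 16171 in heart and 8142, 6133 and 15676 in kidney, with no called difference (limma adjusted p = 0.761). The number of contractile genes higher in heart ran from 1 to 13 when 1 library was left out, and the 13 came without heart 2.

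Hox genes were higher in kidney in each case where a call was made. Of the 12 posterior Hox genes tested (paralog groups 9 to 13), 10 were higher in kidney and none in heart, beside 6.82% of all tested genes; their median log2 fold change was -7.28, or -4.02 with genes at 0 in every heart library set to the bound that 3 reads per library allow. That floor averages 9.7 units of signal in heart and 2.2 in kidney and is used for every lower bound below. Hoxa9 (ENSMUSG00000038227, mm39 chromosome 6, 52200080 to 52208069) was at 0 in all 3 heart libraries and at 532, 575 and 463 in kidney, at least 53.8-fold higher in kidney (limma adjusted p = 2.79e-07). Its neighbour Hoxa10 was at 0, 8 and 0 in heart and 831, 1115 and 838 in kidney (log2 fold change -8.79, SE 0.98, limma adjusted p = 3.28e-06). Hoxa11 was at 0 in heart and at 112, 181 and 134 in kidney, at least 14.6-fold higher (limma adjusted p = 6.73e-10). In the HoxA cluster the kidney signal reached paralog 11, whereas Hoxa13 was at 0 in heart and at 0, 9 and 0 in kidney.

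The other clusters also fell off toward the last paralogs. In HoxD, Hoxd9, Hoxd10 and Hoxd11 were at means of 436, 190.3 and 83 in kidney, and Hoxd12 and Hoxd13 were at 0 in every library apart from 1 unit of Hoxd12 in kidney 2. Across the 3 HoxD genes the heart libraries held 1 unit in all, in Hoxd9 of heart 2. In HoxC, Hoxc9 was at 0 in heart and 156, 232 and 138 in kidney, at least 18-fold higher (limma adjusted p = 2.58e-08), and Hoxc10 at 0, 1 and 0 against 274, 356 and 213 (limma adjusted p = 2.89e-07). Hoxc11 was at 0 in heart and at 22, 14 and 12 in kidney (limma adjusted p = 0.00226), and Hoxc12 was at 0 in all 6. Hoxb9 was at 0 in heart and at 21, 116 and 122 in kidney, at least 8.87-fold higher (limma adjusted p = 0.000165). Its low value in kidney 1 sets it apart from the neighbours named above, and Hoxb13 was at 0 apart from 1 unit in kidney 2.

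Among 19 anterior and central Hox genes tested (paralog groups 1 to 8), 14 were higher in kidney and none in heart. These 14 are 73.7% of the list, beside 6.82% of all tested genes. The median log2 fold change was -4.23 (-2.83 with bounds). Hoxb7 was at 0 in heart and at 150, 362 and 171 in kidney, at least 23.4-fold higher (limma adjusted p = 2.58e-08). Hoxc6 was at 0, 1 and 0 in heart and 290, 273 and 252 in kidney (limma adjusted p = 3.67e-07). In both genes the heart libraries were at or next to 0 and the kidney libraries close together. Hoxd8, the list's gene of highest mean, kept some signal in heart, 13, 84 and 16, against 560, 916 and 1000 in kidney (log2 fold change -4.88, SE 0.92, limma adjusted p = 0.0014). Hoxd4 was at 0 in heart and at 24, 22 and 31 in kidney (limma adjusted p = 5.12e-06), and Hoxb5 at 4, 0 and 0 against 76, 88 and 102 (limma adjusted p = 1.65e-05). Heart was not devoid of Hox RNA: Hoxb2, named after its values were seen, was at 77, 70 and 24 in heart and 119, 71 and 99 in kidney, with overlapping groups (limma adjusted p = 0.428). Counts of members higher in kidney ran from 12 to 14 for the anterior list when 1 library was left out, and stood at 10 for the posterior list in each of these 6 fits.

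**Figure D2:**
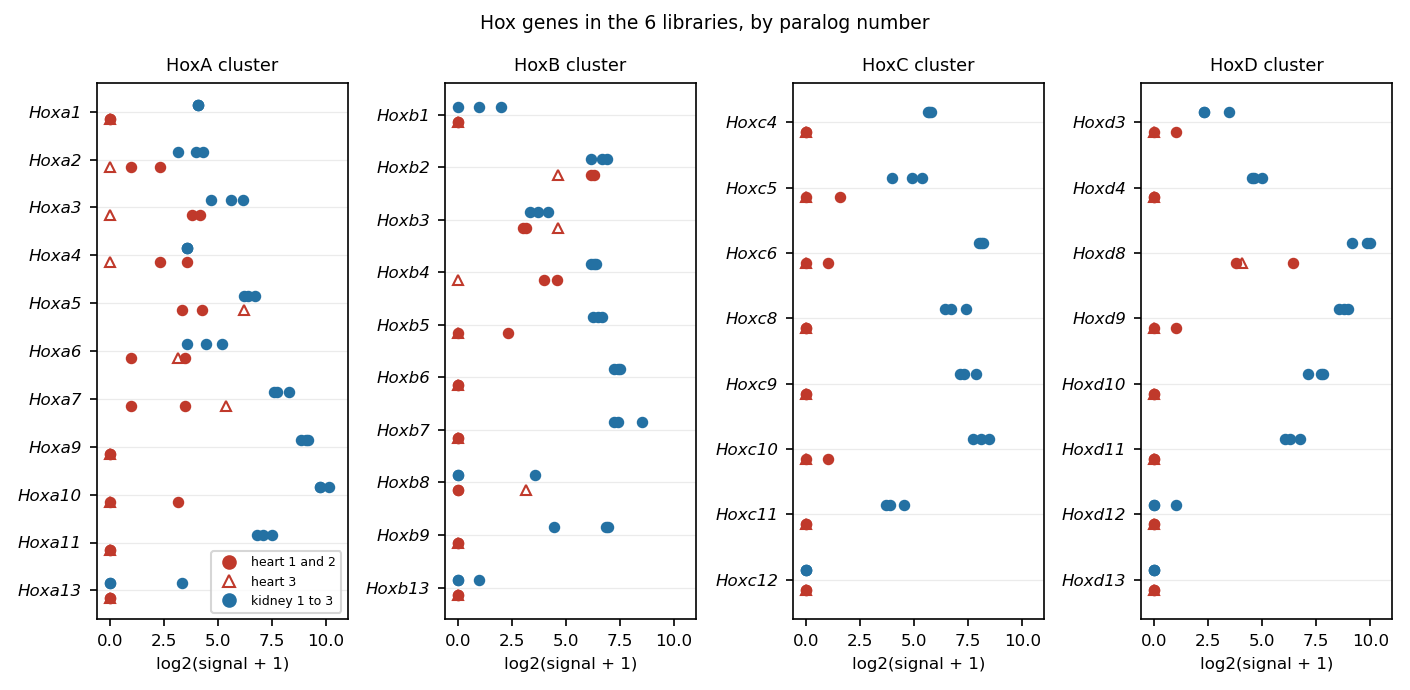
Signal of each Hox gene in the 6 libraries, as log2(signal + 1) on the horizontal axis, in 1 panel per cluster with genes ordered by paralog number. Heart libraries sit at 0 or 1 for paralogs 9 to 11, apart from a signal of 8 for Hoxa10 in heart 2. Kidney libraries reach means of 523.3 for Hoxa9 and 928 for Hoxa10, and the kidney signal is at 9 or less from paralog 12 on.

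Transcription factors of the heart and epicardium showed the opposite direction in 5 of 19 tested genes (26.3%, beside 2.29% of all tested genes). None was higher in kidney, and the list median was 0.41. Gata4 (ENSMUSG00000021944, mm39 chromosome 14, 63436371 to 63509141), a zinc finger factor of cardiac mesoderm and epicardium, was at 749, 1367 and 874 in heart and at 0 in all 3 kidney libraries. It was at least 443-fold higher in heart (limma adjusted p = 3.15e-08). In the other 5 tissues its mean ran from 0 to 2046. Hand2, a basic helix-loop-helix factor of heart and limb, was at 133, 132 and 81 in heart and 0, 2 and 0 in kidney (log2 fold change 6.3, SE 0.92, limma adjusted p = 9.21e-05). Tbx18, a T-box factor of the epicardium, was at 192, 221 and 97 against 34, 2 and 25 (3.53, SE 0.88, limma adjusted p = 0.0138), and missed the threshold without kidney 2 (adjusted p = 0.0702).

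Tbx20, another cardiac T-box factor, was at 197, 469 and 0 in heart and 0, 0 and 1 in kidney (limma adjusted p = 0.0303). The 0 in heart 3, where 3 reads would be 24.3 units, made its groups overlap. Without heart 3 its adjusted p was 2.54e-06, whereas leaving out any of the other 5 libraries ended the call (adjusted p = 0.106 without heart 1, 0.101 without heart 2, and 0.0961, 0.069 and 0.0605 without kidney 1, 2 and 3). Zfpm2, the GATA cofactor FOG2, was at 446, 820 and 898 against 314, 157 and 213, a log2 difference of 1.65 (limma adjusted p = 0.0212). It missed the threshold without heart 2, heart 3, kidney 2 or kidney 3 (adjusted p = 0.0503, 0.0811, 0.0741 and 0.0669). Tbx2 and Mef2c, the list's genes of highest mean, showed no called difference: Tbx2 was at 2992, 3146 and 5331 in heart and 2559, 2303 and 3604 in kidney. The list's count higher in heart was 2 without kidney 2 and 3 without heart 2 or kidney 3. In the fit of the 6 libraries alone 2 of the 5 factors passed, Gata4 (adjusted p = 0.0076) and Hand2 (adjusted p = 0.0129).

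Of 19 tested transcription factors of the renal stroma and nephron lineage, 8 were higher in kidney and none in heart. These 8 are 42.1% of the list, beside 6.82% of all tested genes. The list median was -1.92 (-1.71 with bounds). Gata3, a zinc finger factor of the mesangium and renin lineage, was at 25, 47 and 0 in heart and 1531, 1511 and 1346 in kidney. The kidney libraries lay close together and far above heart (log2 fold change -7.08, SE 1.09, limma adjusted p = 0.000172), although the call was lost with the 6 libraries alone (adjusted p = 0.0695). Sall1, a zinc finger factor of nephron progenitors and renal mesenchyme, was at 0 in heart and 120, 54 and 90 in kidney, at least 9.04-fold higher (limma adjusted p = 1.93e-05). Emx2 was at 0 in heart and at 15, 28 and 58 in kidney (limma adjusted p = 9.35e-06). Pax8, a factor of the tubule epithelium, was at 1, 0 and 0 in heart and at 174, 953 and 374 in kidney (log2 fold change -8.3, SE 0.76, limma adjusted p = 2.71e-07).

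The TALE homeodomain factors Meis1 and Meis2, which bind DNA beside Hox proteins, were higher in kidney by smaller steps. Meis2 was at 160, 185 and 307 in heart and 706, 646 and 698 in kidney (log2 fold change -1.71, SE 0.34, limma adjusted p = 0.00202). Meis1 was at 94, 249 and 105 against 854, 626 and 849 (-2.5, SE 0.67, limma adjusted p = 0.023). Meis2 passed in every fit that left out 1 library. Meis1 missed the threshold without heart 1, heart 3, kidney 1 or kidney 3 (adjusted p = 0.07, 0.0863, 0.0779 and 0.0758). Foxc1, a forkhead factor and the list's gene of highest mean, was at 1374, 1633 and 1019 against 1831, 1725 and 1524 and did not pass (limma adjusted p = 0.608).

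The kidney libraries also carried RNA of nephron epithelium. Of 18 nephron markers tested, 16 were higher in kidney (88.9%, beside 6.82% of all tested genes) and none in heart. The summed signal of the markers was 446 to 792 in heart and 11612 to 26928 in kidney. Slc34a1, the phosphate transporter of the proximal tubule, was at 0 in heart and 1780, 1303 and 2420 in kidney, at least 189-fold higher (limma adjusted p = 4.73e-12). Umod, the uromodulin of the thick ascending limb, was at 0 in heart and at 966, 1820 and 3438 in kidney, at least 213-fold higher (limma adjusted p = 1.62e-09). Slc12a1, the loop diuretic target of the same segment, was at 0 in heart and 840, 787 and 5538 in kidney, and kidney 3 set it apart. Slc12a3, the thiazide target of the distal tubule, was at 0, 1 and 0 in heart and 421, 1211 and 1841 in kidney (limma adjusted p = 2.04e-07). Other genes of the largest differences in this direction were Slc14a2 (a urea transporter), Acsm2 and Slc27a2 (an acyl-CoA synthetase and a fatty acid transporter), and, outside the marker list, Egf (at 0, 0 and 8 against 734, 1131 and 4867). Of the markers 9 were at 0 in all 3 heart libraries, while Podxl, a glycoprotein of podocytes that endothelium also makes, was at 401, 638 and 671 in heart and 686, 954 and 1241 in kidney (limma adjusted p = 0.561). In bulk RNA, fewer cells of a type and less RNA per cell cannot be told apart. The part of nephron RNA in the other genes higher in kidney was not tested.

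Glp1r (ENSMUSG00000024027, mm39 chromosome 17, 31120791 to 31159765), the receptor of the incretin glucagon-like peptide, was at 0, 2 and 8 in heart and 3251, 1472 and 2859 in kidney. No library of the groups came near the other group, and the log2 fold change was -9.64 (SE 1.2, limma adjusted p = 1.29e-05). Its mean elsewhere ran from 3 to 510.7.

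Renin and the angiotensin receptors were higher in kidney, and the converting enzyme was higher in heart. Of 15 tested genes of the renin-angiotensin system and renin cells, 5 were higher in kidney and 1 in heart, with a median of -1.31 (-1.14 with bounds). Together the called genes are 40% of the list, beside 9.11% of all tested genes. Ren1 (ENSMUSG00000070645, mm39 chromosome 1, 133278248 to 133288063), encoding renin, was at 0, 4 and 0 in heart and 1345, 1934 and 3337 in kidney (log2 fold change -10.23, SE 1.54, limma adjusted p = 0.000134). In reads the kidney libraries held 2949, 2930 and 2944, nearly equal despite their unequal depth, so the spread of its kidney signal follows the worth of 1 read and Ren1 counts as near the ceiling. Akr1b7, an aldo-keto reductase made by renin cells, was at 8, 1 and 0 in heart and 722, 857 and 1264 in kidney (-8.46, SE 1.32, limma adjusted p = 0.000187).

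All 3 angiotensin II receptors were higher in kidney. Agtr1a, the main vasoconstrictor receptor, was at 55, 39 and 8 in heart and 1468, 1057 and 1262 in kidney, 46-fold on the log2(signal + 1) scale (-5.52, SE 0.69, limma adjusted p = 1.43e-05). Its paralog Agtr1b was at 6, 1 and 0 against 326, 173 and 125 (-6.32, SE 0.93, limma adjusted p = 9.94e-05). Agtr2, which opposes the type 1 receptors, was low, at 0 in heart and 18, 24 and 11 in kidney, at least 1.82-fold higher (limma adjusted p = 0.0181). It missed the threshold without heart 3, kidney 1 or kidney 2 (adjusted p = 0.0504, 0.0581 and 0.0521). Ace, the converting enzyme that makes angiotensin II, ran the other way, at 421, 1443 and 922 in heart and 155, 279 and 210 in kidney. Its log2 fold change of 1.98 (limma adjusted p = 0.0186) missed the threshold without heart 2, heart 3, kidney 1 or kidney 3 (adjusted p = 0.0615, 0.0652, 0.088 and 0.0558). Enpep, an aminopeptidase that acts on angiotensin II, was at 955, 1283 and 1246 against 2694, 2443 and 2477, separate groups that did not pass (limma adjusted p = 0.0655).

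The promoters of Ren1 and P2rx1 (the latter described below) are shown for renin, the enzyme at the head of its group, and for the gene with the largest difference toward kidney of those the naming rule took among genes with at least 50 units in all 6 libraries. Each is the 250 bases before the RefSeq start in GRCm38.p6, 5′ to 3′ on the strand of the gene, with matches to the searched motifs in capitals: TGATNNAT, the composite letters of Hox and Pbx proteins, AGATAA, the GATA core, and TATAAA, the TATA box, on either strand. The Ren1 window is chr1:133350424-133350673 on the plus strand, and the P2rx1 window is chr11:72998895-72999144 on the plus strand.
Ren1: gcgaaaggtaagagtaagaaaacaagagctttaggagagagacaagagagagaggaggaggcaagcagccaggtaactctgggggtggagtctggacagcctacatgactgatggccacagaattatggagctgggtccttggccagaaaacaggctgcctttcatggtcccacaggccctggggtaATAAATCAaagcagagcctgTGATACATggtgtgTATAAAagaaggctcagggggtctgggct
P2rx1: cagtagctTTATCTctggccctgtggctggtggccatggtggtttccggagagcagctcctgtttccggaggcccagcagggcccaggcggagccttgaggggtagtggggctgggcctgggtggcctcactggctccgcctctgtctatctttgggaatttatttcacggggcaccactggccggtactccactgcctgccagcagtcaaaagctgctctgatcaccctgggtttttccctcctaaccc
In Ren1 the composite letters stood at positions -63 to -56 (minus strand) and -43 to -36 from the start, and a TATA box at -29 to -24. In P2rx1 the GATA core stood at -242 to -237 on the minus strand. Of 27025 RefSeq windows of this length, 7.91% held the composite letters, 10.3% the GATA core and 13% the TATA box. Of the 19 genes named for the largest differences toward kidney that had a window, 1 held the composite letters, 3 the GATA core and 3 the TATA box; of 19 toward heart the numbers were 0, 2 and 4. A match describes the letters and not a bound site.

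Among receptors for catecholamines and acetylcholine, 3 of 13 tested were higher in kidney and none in heart (median -1.19). The called share was 23.1%, beside 9.11% of all tested genes. Adra1a, an alpha-1 receptor that contracts resistance arteries, was at 1, 0 and 0 in heart and 545, 345 and 330 in kidney (limma adjusted p = 0.000172). Adra1b was at 11, 0 and 0 against 67, 94 and 143 (-5.41, SE 1.26, limma adjusted p = 0.00898), and Adra2a at 4, 2 and 0 against 130, 53 and 99 (-5.18, SE 1.16, limma adjusted p = 0.00633). In all 3 the groups did not overlap. Adra1b missed the threshold with the 6 libraries alone (adjusted p = 0.0891). Adra1d, the other alpha-1 receptor, was at 40, 11 and 24 in heart and 29, 45 and 19 in kidney, with overlapping groups and no called difference (limma adjusted p = 0.802). Drd1, a dopamine receptor of renal vessels, was at 61, 240 and 146 in heart and 563, 259 and 331 in kidney and did not pass (limma adjusted p = 0.461).

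Peptide receptors differed in both directions. Of 26 genes of endothelin and other vasoactive peptides, 5 were higher in kidney and 2 in heart (median -0.89). The called share was 26.9%, beside 9.11% of all tested genes. Uts2r, the receptor of the vasoconstrictor urotensin, was at 53, 130 and 113 in heart and at 0 in kidney, at least 43.9-fold higher in heart (limma adjusted p = 2.87e-06), and its mean elsewhere did not exceed 2.7. Npr1, the receptor of atrial natriuretic peptide, was at 75, 174 and 24 in heart and 910, 867 and 702 in kidney (-3.57, SE 0.69, limma adjusted p = 0.00172). Npr3, the clearance receptor of the same peptides, was at 27, 6 and 0 against 134, 335 and 99 (-4.83, SE 0.9, limma adjusted p = 0.00124). Both natriuretic peptide receptors thus had their lowest value in heart 3 and separate groups. Vipr2, a receptor of vasoactive intestinal peptide, was at 67, 62 and 0 against 825, 446 and 667 (limma adjusted p = 0.0083), and Edn3, an endothelin ligand, at 0 in heart and 66, 267 and 62 in kidney, at least 13.5-fold higher (limma adjusted p = 0.00153). With the 6 libraries alone, Npr1, Npr3 and Vipr2 missed the threshold (adjusted p = 0.0613, 0.177 and 0.22).

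The other passing members of this group, named after their values were seen, were Oxtr and Ramp1. Oxtr, the oxytocin receptor, was at 0 in heart and 57, 20 and 6 in kidney (limma adjusted p = 0.0124; 0.079 without kidney 1). Ramp1, a subunit of the receptor for the dilator CGRP, was at 1257, 905 and 1780 in heart and 612, 848 and 516 in kidney (limma adjusted p = 0.035), but not past the threshold without heart 1, heart 3, kidney 1 or kidney 3 (adjusted p = 0.065, 0.173, 0.108 and 0.149). The endothelin receptors themselves were not called. Ednra, which contracts, was at 1558, 1834 and 1747 in heart and 2488, 1733 and 2208 in kidney (limma adjusted p = 0.797). Ednrb, named after its values were seen, was at 318, 502 and 186 against 2952, 1614 and 2451, separate groups that did not pass (log2 fold change -2.87, limma adjusted p = 0.135).

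A purine receptor had the largest difference toward kidney of the genes that the naming rule took among those with at least 50 units in all 6 libraries. P2rx1 (ENSMUSG00000020787, mm39 chromosome 11, 72889929 to 72906026), the ATP-gated channel through which sympathetic nerves and the macula densa contract arteries, was at 160, 99 and 202 in heart and 2062, 2830 and 2926 in kidney. Kidney was 17.4-fold higher on the log2(signal + 1) scale (-4.12, SE 0.71, limma adjusted p = 0.000568). Adora1, the adenosine receptor that constricts the afferent arteriole, was at 38, 8 and 0 in heart and 722, 209 and 395 in kidney (-5.8, SE 1.25, limma adjusted p = 0.00475). Htr1b, a serotonin receptor, was at 0 in heart and 66, 28 and 117 in kidney, at least 7.23-fold higher (limma adjusted p = 0.00459). In the other direction, P2ry14, a receptor of UDP-sugars and a pericyte marker, was at 526, 365 and 396 in heart and 199, 145 and 177 in kidney (1.29, SE 0.31, limma adjusted p = 0.0117). These were the 3 genes higher in kidney and the 1 higher in heart of 23 receptors of prostanoids, purines, serotonin and lysolipids (median -0.41). Called were 17.4% of the list, beside 9.11% of all tested genes. With the 6 libraries alone Adora1 and P2ry14 missed the threshold (adjusted p = 0.119 and 0.0558). S1pr3, a sphingosine phosphate receptor and the list's gene of highest mean, was at 4657, 4233 and 13420 against 3207, 4286 and 5656 and did not pass (limma adjusted p = 0.575).

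**Figure D3:**
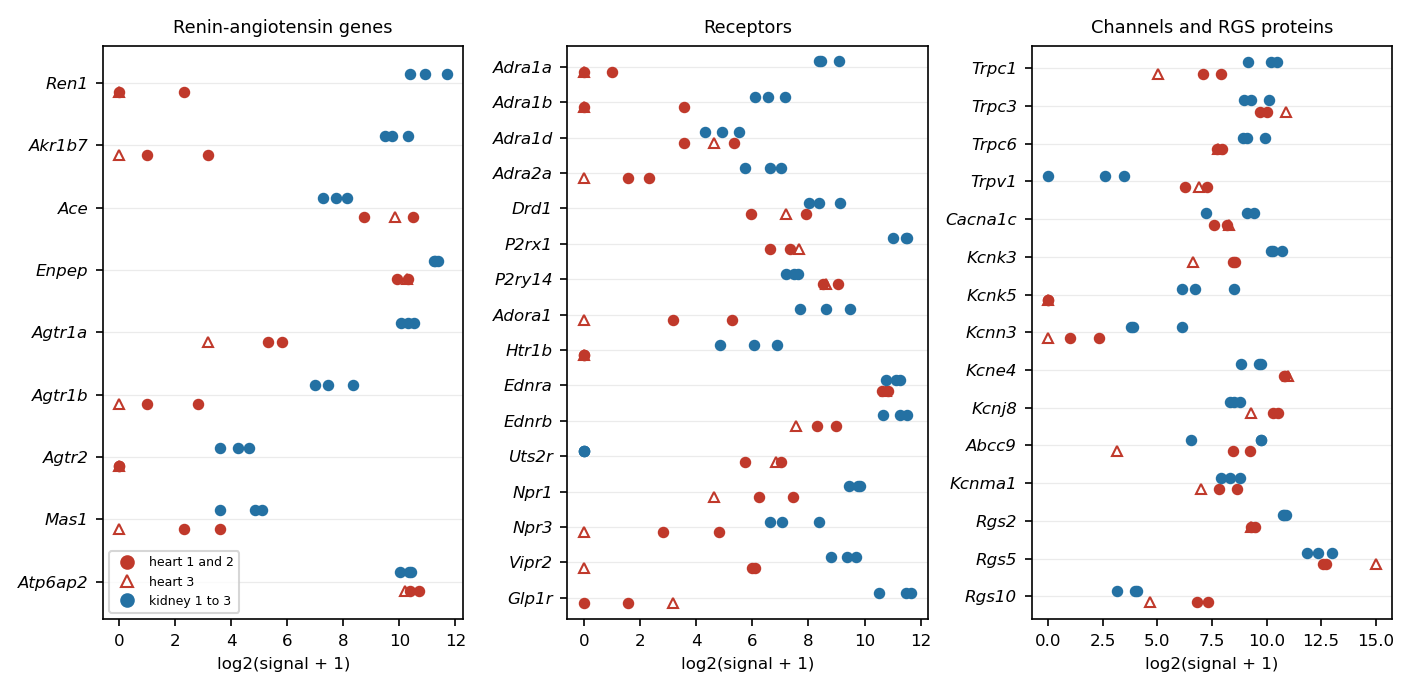
Signal of renin-angiotensin genes, receptors, channels and RGS proteins in the 6 libraries, as log2(signal + 1), with filled red circles for heart 1 and 2, open red triangles for heart 3 and blue circles for kidney. Blue points stand to the right for Ren1, Agtr1a, Adra1a, P2rx1 and Glp1r, red points for Ace, Uts2r and Trpv1, and the colours mix for Adra1d and Cacna1c.

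Of 20 potassium channel genes, 3 were higher in kidney and 1 in heart (median -0.81), a called share of 20% beside 9.11% of all tested genes. The count higher in kidney was 1 without heart 3 or kidney 3. Kcne4, an accessory subunit of voltage-gated channels, was at 1803, 1842 and 1990 in heart and 816, 453 and 858 in kidney (1.46, SE 0.27, limma adjusted p = 0.001). Kcnk5, a background potassium channel, was at 0 in heart and 70, 360 and 105 in kidney, at least 18.3-fold higher (limma adjusted p = 4.62e-06). Its relative Kcnk3, which holds the resting potential, was at 357, 375 and 97 against 1193, 1678 and 1262 (-2.53, SE 0.72, limma adjusted p = 0.0337), and missed the threshold without heart 3, kidney 1, kidney 2 or kidney 3 (adjusted p = 0.177, 0.0767, 0.082 and 0.0808). Kcnn3, a calcium-activated channel, was low at 1, 4 and 0 against 14, 13 and 68 (limma adjusted p = 0.0277), and missed it without heart 1, heart 3 or kidney 3 (adjusted p = 0.058, 0.116 and 0.145). With the 6 libraries alone, Kcne4 missed it as well (adjusted p = 0.0554). Kcna5 and Kcnab1, the members of highest mean, were not called: Kcna5, a voltage-gated channel, was at 1676, 1908 and 1577 in heart and 2157, 1641 and 1998 in kidney (limma adjusted p = 0.912).

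Of 33 genes of calcium entry and release, 2 were higher in heart and 1 in kidney (median -0.23), 9.09% of the list beside 9.11% of all tested genes. None was higher in heart without kidney 3. Trpc1, a cation channel subunit, was at 136, 237 and 32 in heart and 1448, 572 and 1167 in kidney (-3.27, SE 0.68, limma adjusted p = 0.00349; 0.113 with the 6 libraries alone). Trpv1, the capsaicin receptor, was at 76, 153 and 121 in heart and 10, 5 and 0 in kidney (4.81, SE 1.07, limma adjusted p = 0.00597; 0.0505 without kidney 3). Its groups were well apart, and its mean elsewhere did not exceed 20.3. Sln, sarcolipin, an inhibitor of the sarcoplasmic calcium pump known from atrial muscle, was at 87, 336 and 16 in heart and at 0 in kidney (limma adjusted p = 0.0443), and leaving out any library but heart 3 ended its call (adjusted p = 0.0809 and 0.101 without heart 1 and 2, and 0.114, 0.0814 and 0.109 without kidney 1, 2 and 3). Atp2a2, the pump itself, was at 3214, 4729 and 8397 against 3968, 3144 and 5349 (limma adjusted p = 0.787), and Ano1, the calcium-activated chloride channel, at 1748, 2175 and 2945 against 3473, 1638 and 3165 (limma adjusted p = 0.859).

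RGS proteins, which shorten G protein signals, gave 2 genes higher in kidney and 1 in heart of 15 tested (median 0). Called were 20% of the list, beside 9.11% of all tested genes. Rgs2, which restrains angiotensin and alpha-1 signalling, was at 624, 718 and 615 in heart and 1703, 1757 and 1922 in kidney, tight groups 2.8-fold apart (-1.46, SE 0.34, limma adjusted p = 0.00893). Rgs9 was at 0, 1 and 0 against 23, 46 and 9 (limma adjusted p = 0.00098). Rgs10 was at 157, 110 and 24 in heart and 8, 15 and 16 in kidney (limma adjusted p = 0.0463), and leaving out any library but heart 3 ended its call (adjusted p = 0.144 and 0.0898 without heart 1 and 2, and 0.172, 0.066 and 0.0846 without kidney 1, 2 and 3). Rgs5, the mural cell member, was at 6788, 6120 and 32601 in heart and 3661, 5236 and 8095 in kidney, high in heart 3 like Acta2 (limma adjusted p = 0.33).

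Of 18 genes of cyclic GMP and cyclic AMP relaxation, 1 was higher in each tissue (median -0.22). The called share of 11.1% stands beside 9.11% of all tested genes. Adcy3, an adenylyl cyclase, was at 75, 152 and 307 in heart and 850, 590 and 469 in kidney (-2.01, SE 0.51, limma adjusted p = 0.0164), and missed the threshold without heart 1 or kidney 1 (adjusted p = 0.0759 and 0.0849). Pde4b, a cyclic AMP phosphodiesterase, was at 2716, 2572 and 6277 against 2251, 903 and 1515 (1.28, SE 0.34, limma adjusted p = 0.0205), and missed it without heart 3, kidney 2 or kidney 3 (adjusted p = 0.131, 0.0941 and 0.054). Gucy1a1 and Gucy1b1, the subunits of the nitric oxide receptor, had separate groups that did not pass: Gucy1a1 was at 3864, 4284 and 6965 in heart and 3177, 1814 and 2926 in kidney (limma adjusted p = 0.0627). Its partner Gucy1b1 was at 2758, 3153 and 3980 against 1805, 1261 and 1716 (limma adjusted p = 0.0546).

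Extracellular matrix genes of a cartilage or tendon kind included the largest fitted difference toward heart of the genes the naming rule took, that of Chad. Of 25 such genes, 5 were higher in heart and 2 in kidney (28%, beside 9.11% of all tested genes), and the median was 1.11. Chad (ENSMUSG00000039084, mm39 chromosome 11, 94455873 to 94459953), chondroadherin, a leucine-rich repeat protein of cartilage, was at 2188, 1873 and 2314 in heart and 0, 3 and 0 in kidney. The 3 heart libraries lay between 1873 and 2314, the log2 fold change was 10.38 (SE 1.79, limma adjusted p = 0.00056), and the mean elsewhere ran from 25.7 to 386.7. Prg4, the joint lubricant lubricin, was at 1082, 1966 and 2168 in heart and 1, 3 and 5 in kidney (8.84, SE 1.02, limma adjusted p = 5.12e-06). Comp, cartilage oligomeric matrix protein, was at 1652, 2853 and 1877 against 24, 15 and 93 (5.95, SE 1.57, limma adjusted p = 0.0205). Although the groups lay far apart, Comp missed the threshold without heart 3, kidney 1 or kidney 2 (adjusted p = 0.053, 0.0726 and 0.0644).

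Cilp2, a cartilage intermediate layer protein, was at 124, 372 and 129 in heart and 0, 1 and 1 in kidney (limma adjusted p = 0.00215). Clec3a, a C-type lectin of cartilage, was at 68, 84 and 65 in heart and at 0 in kidney, at least 32.2-fold higher (limma adjusted p = 2.75e-09). The members higher in kidney, named after their values were seen, were Col2a1 and Tnc. Col2a1, the fibrillar collagen of cartilage, was at 24, 1 and 0 in heart and 111, 86 and 139 in kidney (-4.91, SE 0.99, limma adjusted p = 0.00247), against the direction of the rest, and missed the threshold with the 6 libraries alone (adjusted p = 0.163). Tnc, tenascin C, was at 75, 133 and 340 against 591, 719 and 473 (-1.95, SE 0.49, limma adjusted p = 0.015; 0.0731 without heart 1). Sox9, the master regulator of cartilage, also named after its values were seen, was at 649, 1418 and 380 in heart and 74, 173 and 129 in kidney, separate groups that did not pass (2.56, limma adjusted p = 0.0726). The list's genes of highest mean, Thbs1 and Fmod, were not called (limma adjusted p = 0.22 and 0.268).

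The promoters of Chad and Wnt5b (the latter described below) are shown for the matrix gene with the largest difference toward heart and for a Wnt ligand higher there, whose difference was smaller than that of the inhibitor Wif1. They are again the 250 bases before the RefSeq start in GRCm38.p6, searched for the same motifs, at chr11:94564797-94565046 on the plus strand for Chad and chr6:119544348-119544597 on the minus strand for Wnt5b.
Chad: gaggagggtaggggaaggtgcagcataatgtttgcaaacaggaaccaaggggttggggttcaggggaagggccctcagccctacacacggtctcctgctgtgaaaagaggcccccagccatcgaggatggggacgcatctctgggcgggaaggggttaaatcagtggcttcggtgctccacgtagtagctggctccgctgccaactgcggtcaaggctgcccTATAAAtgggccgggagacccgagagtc
Wnt5b: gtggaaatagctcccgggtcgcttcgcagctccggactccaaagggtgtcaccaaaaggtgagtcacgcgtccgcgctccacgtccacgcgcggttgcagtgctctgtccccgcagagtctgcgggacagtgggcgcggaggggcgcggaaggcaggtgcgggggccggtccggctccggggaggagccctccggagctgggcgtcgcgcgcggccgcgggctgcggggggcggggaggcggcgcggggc
In Chad a TATA box stood at positions -28 to -23, and no searched motif matched in Wnt5b, which says only that these letters are not in this window.

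Proteoglycans and matricellular proteins followed with 4 genes higher in heart and 2 in kidney of 21 (median 0.4, with 17 near the ceiling). Called were 28.6% of the list, beside 9.11% of all tested genes. Ccn3, a matricellular protein that restrains smooth muscle growth, was at 3743, 2802 and 1941 in heart and 348, 338 and 280 in kidney (3.09, SE 0.24, limma adjusted p = 3.36e-08). Postn, periostin, was at 2909, 3929 and 4457 against 447, 317 and 942 (2.86, SE 0.34, limma adjusted p = 8.68e-06). In the other 5 tissues the mean of Postn ran from 2251 to 9419.7 and that of Ccn3 from 581.7 to 14420, all above the kidney means of 568.7 and 322. Prelp was at 2757, 3985 and 6828 against 1166, 1704 and 2103 (1.39, SE 0.28, limma adjusted p = 0.00246). Aspn, asporin, was at 3386, 2880 and 5177 against 1198, 1519 and 1949 (limma adjusted p = 0.0355), and missed the threshold without heart 1, heart 3, kidney 1 or kidney 2 (adjusted p = 0.0562, 0.164, 0.154 and 0.0686). In kidney, Podn, podocan, was higher, at 88, 234 and 89 against 307, 659 and 991 (-2.25, SE 0.4, limma adjusted p = 0.000764). Ccn4 was at 230, 118 and 0 against 399, 551 and 426 (limma adjusted p = 0.043), and missed it without kidney 1, kidney 2 or kidney 3 (adjusted p = 0.101, 0.0894 and 0.102). Prelp and Podn missed it as well with the 6 libraries alone (adjusted p = 0.181 and 0.139). Dcn and Bgn, decorin and biglycan, were not called (limma adjusted p = 0.219 and 0.385).

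Elastic fibre genes gave 2 higher in heart and none in kidney of 21 (median 0.14), 9.52% called beside 9.11% of all tested genes. Without heart 2, 4 were higher in kidney, and 1 was without kidney 1 or kidney 2. Fbln2, a fibulin, was at 1521, 3461 and 2233 in heart and 426, 1101 and 469 in kidney (1.91, SE 0.38, limma adjusted p = 0.00223; 0.122 with the 6 libraries alone). Fbln5, which assembles elastic fibres, was at 3758, 3251 and 5064 against 1556, 2892 and 2537 (limma adjusted p = 0.022), and missed the threshold without heart 3 (adjusted p = 0.122) or kidney 1 (adjusted p = 0.148). Eln, elastin itself, named after its values were seen, was at 2011, 2975 and 720 in heart and 2068, 4176 and 5471 in kidney (limma adjusted p = 0.0698).

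Of 17 fibrillar and associated collagens 1 was higher in kidney and none in heart (median -1.16; 14 near the ceiling), 5.88% beside the 6.82% of all tested genes higher in kidney. Without heart 2, 6 were higher in kidney, and 2 without heart 3, kidney 1 or kidney 2. Col6a3, a chain of microfibrillar collagen, was at 172, 418 and 113 in heart and 1440, 692 and 3466 in kidney (-2.9, SE 0.52, limma adjusted p = 0.000776; 0.127 with the 6 libraries alone). Col1a1 and Col3a1, the main fibril collagens, had overlapping groups: Col3a1 was at 5060, 7013 and 6407 in heart and 4172, 6082 and 10682 in kidney (limma adjusted p = 0.91). Of 22 basement membrane genes 3 were higher in kidney (13.6%) and none in heart (median -1.05). The number higher in kidney was 6 without heart 2 and 1 without kidney 3. Npnt, nephronectin, an integrin ligand, was at 577, 662 and 615 against 1577, 2006 and 2562 (-1.7, SE 0.41, limma adjusted p = 0.0118; 0.0632 without kidney 3). Lamc3, a laminin chain, was at 32, 115 and 0 against 1271, 374 and 889 (limma adjusted p = 0.00642; 0.214 with the 6 libraries alone). Col4a3, a collagen chain known from the glomerular basement membrane, was at 120, 192 and 105 against 818, 624 and 787 (limma adjusted p = 0.0473), and passed in 1 of the 6 fits that left out a library, the one without heart 2; without heart 1, heart 3, kidney 1, kidney 2 and kidney 3 the adjusted p was 0.0902, 0.138, 0.141, 0.0709 and 0.126.

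**Figure D4:**
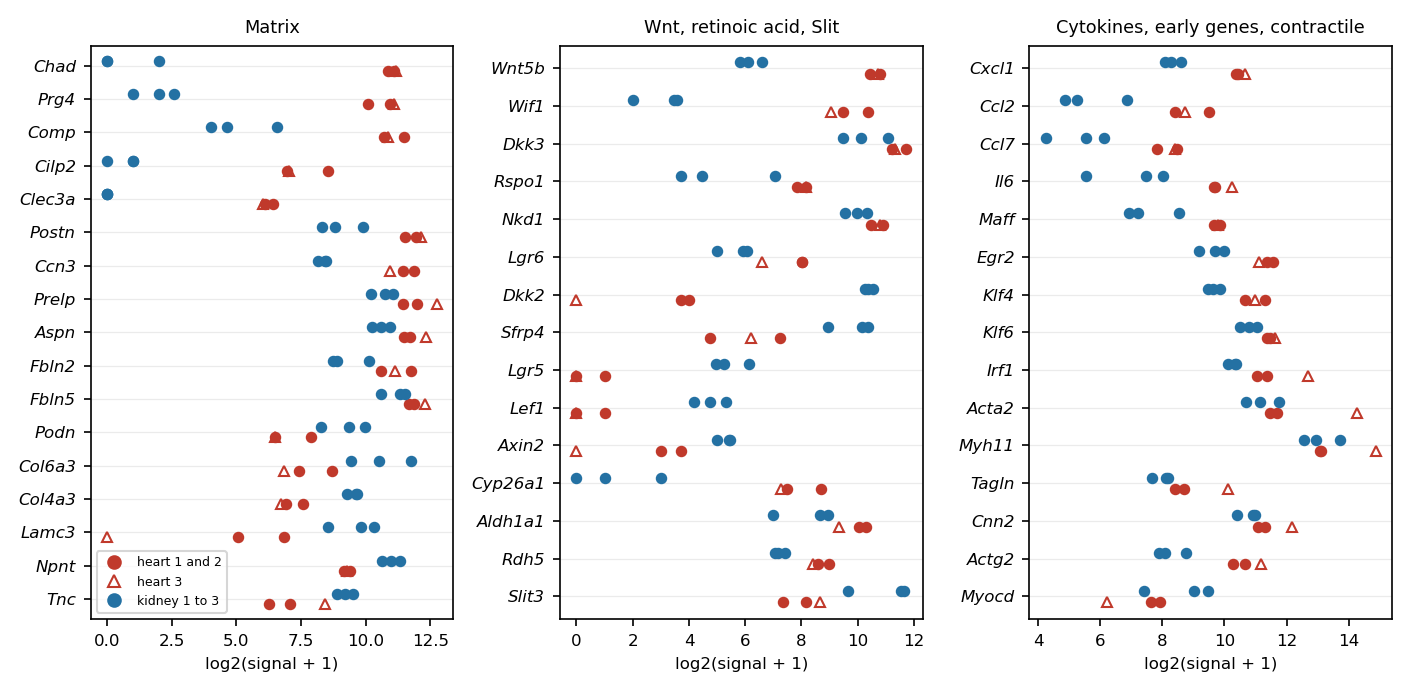
Signal of matrix genes, of Wnt, retinoic acid and Slit genes, and of cytokines, early response genes and contractile genes in the 6 libraries, as log2(signal + 1), with filled red circles for heart 1 and 2, open red triangles for heart 3 and blue circles for kidney. Red points stand to the right for Chad, Prg4, Wnt5b, Wif1, Cyp26a1 and Ccl2, blue points for Dkk2, Sfrp4 and Podn, and the triangle of heart 3 lies far to the right of the other red points for Acta2.

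Wnt signals, which are secreted proteins held in check by secreted inhibitors, differed in 11 of 28 genes, 6 higher in heart and 5 in kidney (median -0.7). These 11 are 39.3% of the list, beside 9.11% of all tested genes. The number higher in heart was 2 without kidney 1 or kidney 3 and at most 5 in the other fits that left out 1 library. Wnt5b (ENSMUSG00000030170, mm39 chromosome 6, 119409492 to 119521308), a ligand, was at 1783, 1375 and 1691 in heart and 56, 97 and 68 in kidney, 22.1-fold apart on the log2(signal + 1) scale (4.47, SE 1.07, limma adjusted p = 0.0111). Wif1, an inhibitor that binds Wnt ligands, was at 717, 1317 and 534 against 3, 10 and 11 (6.62, SE 0.57, limma adjusted p = 1.23e-07). Kidney carried another inhibitor: Dkk2, which blocks the co-receptor, was at 12, 15 and 0 in heart and 1500, 1220 and 1321 in kidney (-7.82, SE 0.83, limma adjusted p = 2.01e-06). Lgr5, a receptor of R-spondins and a Wnt target, was at 1, 0 and 0 against 30, 37 and 70 (limma adjusted p = 1.7e-05), and Sfrp4, a secreted Frizzled-related inhibitor, at 26, 150 and 73 against 493, 1305 and 1125 (-3.74, SE 0.75, limma adjusted p = 0.00248; 0.0558 with the 6 libraries alone). Dkk3 was at 2369, 3374 and 2540 in heart and 720, 2174 and 1109 in kidney (limma adjusted p = 0.0128), and missed the threshold without kidney 1 (adjusted p = 0.0905) or kidney 3 (adjusted p = 0.0533). Nkd1, a feedback inhibitor, was at 1920, 1428 and 1788 against 994, 1274 and 747 (limma adjusted p = 0.0487), and missed it without heart 1, heart 3, kidney 1 or kidney 3 (adjusted p = 0.117, 0.131, 0.116 and 0.214). Lef1, a transcription factor of the pathway, was at 1, 0 and 0 in heart and 26, 39 and 17 in kidney (limma adjusted p = 0.00775). The other 3 genes that passed are named after their values were seen. Rspo1, an R-spondin that strengthens Wnt signals, was at 289, 226 and 283 in heart and 21, 131 and 12 in kidney (limma adjusted p = 0.0129), and missed the threshold without kidney 1 (adjusted p = 0.0676), without kidney 3 (adjusted p = 0.0871) and with the 6 libraries alone (adjusted p = 0.202). Lgr6, a receptor of R-spondins, was at 256, 259 and 97 against 60, 66 and 31 (limma adjusted p = 0.0481), and of the fits that left out 1 library it passed in the one without heart 3; without heart 1, heart 2, kidney 1, kidney 2 and kidney 3 the adjusted p was 0.118, 0.0981, 0.0894, 0.0523 and 0.186. Axin2, a feedback inhibitor, was at 7, 12 and 0 against 42, 31 and 43 (limma adjusted p = 0.011; 0.271 with the 6 libraries alone).

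Ligands and inhibitors of BMP and TGF-beta gave 2 genes higher in heart and 3 in kidney of 33 (median -0.08). The called share was 15.2%, beside 9.11% of all tested genes. None was higher in heart without kidney 1, and 1 was higher in kidney without kidney 2. Chrdl1, a BMP-binding inhibitor, was at 323, 538 and 566 in heart and 72, 187 and 166 in kidney (1.81, SE 0.41, limma adjusted p = 0.00686; 0.054 without kidney 1). Bmp5, a ligand, was at 293, 262 and 299 against 36, 19 and 49, tight and separate groups (3.1, SE 0.85, limma adjusted p = 0.0261) that missed the threshold without heart 1, heart 3, kidney 1 or kidney 2 (adjusted p = 0.0562, 0.0754, 0.0647 and 0.0814). The inhibitor Nog and the ligand Bmp3 were among those higher in kidney. Nog was at 8, 1 and 0 in heart and 13, 75 and 20 in kidney (limma adjusted p = 0.0186). Bmp3 was at 67, 28 and 0 against 45, 202 and 188, overlapping groups (limma adjusted p = 0.0428). Nog missed the threshold without heart 3 or kidney 2 (adjusted p = 0.0921 and 0.0815), and Bmp3 without heart 3, kidney 2 or kidney 3 (adjusted p = 0.157, 0.112 and 0.146). No gene of 21 in the Notch pathway passed in limma (median -0.04; 1 at an unadjusted p under 0.05), 0 passed in edgeR and 2 in DESeq2; Notch3, its mural cell receptor, was at 1608, 2468 and 2823 in heart and 4549, 1546 and 6890 in kidney (limma adjusted p = 0.532).

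Retinoic acid genes gave 3 of 17 higher in heart and none in kidney (median -0.27), 17.6% called beside 9.11% of all tested genes. Without kidney 2, 5 were higher in heart, and 2 were higher in kidney without heart 2 and 1 without kidney 1. Cyp26a1, the enzyme that degrades retinoic acid, was at 180, 415 and 154 in heart and 0, 1 and 7 in kidney (6.49, SE 0.66, limma adjusted p = 9.94e-07), with a mean elsewhere of at most 1.7. Aldh1a1, an enzyme that makes it, was at 1069, 1263 and 647 against 127, 496 and 400 (1.7, SE 0.37, limma adjusted p = 0.00541; 0.234 with the 6 libraries alone). Rdh5, a retinol dehydrogenase, was at 500, 388 and 340 against 170, 131 and 142 (1.45, SE 0.36, limma adjusted p = 0.0132; 0.0523 without heart 1).

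Of 33 growth and guidance factors, 2 were higher in heart and 4 in kidney (median -0.51), 18.2% called beside 9.11% of all tested genes. The number higher in kidney was 8 without heart 2, 1 without heart 3 or kidney 3 and 2 without kidney 1 or kidney 2. Fgf18 was at 65, 172 and 186 in heart and 6, 9 and 7 in kidney (3.97, SE 0.56, limma adjusted p = 5.82e-05; 0.0537 with the 6 libraries alone). Vegfc, the lymphatic growth factor, was at 1152, 661 and 477 against 100, 394 and 151 (limma adjusted p = 0.013), and missed the threshold without heart 1, kidney 1 or kidney 3 (adjusted p = 0.0617, 0.0894 and 0.0582). Slit3, a guidance ligand of Robo receptors, was at 160, 286 and 404 in heart and 2953, 810 and 3213 in kidney (-2.89, SE 0.59, limma adjusted p = 0.00268; 0.0835 with the 6 libraries alone). Slit2 was at 7, 28 and 0 against 290, 28 and 266, with kidney 2 level with heart 2 (limma adjusted p = 0.023). Vegfd was at 146, 216 and 73 against 310, 556 and 397 (limma adjusted p = 0.0275), and Ntn1, a netrin named after its values were seen, at 74, 288 and 8 against 351, 289 and 591 (limma adjusted p = 0.0407). Without heart 3 none of the 3 passed (adjusted p = 0.137, 0.141 and 0.213), nor without kidney 3 (adjusted p = 0.103, 0.0719 and 0.146). Slit2 and Ntn1 also missed the threshold without kidney 1 (adjusted p = 0.112 and 0.0936), Vegfd and Ntn1 without kidney 2 (adjusted p = 0.0878 and 0.0538), and Ntn1 without heart 1 (adjusted p = 0.0577).

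Of 20 cytokines and chemokines 4 were higher in heart and 1 in kidney (median -0.27), and 3 were higher in kidney without heart 2. The called share was 25%, beside 9.11% of all tested genes. Cxcl1, which attracts neutrophils, was at 1386, 1311 and 1602 in heart and 387, 271 and 306 in kidney (2.16, SE 0.34, limma adjusted p = 0.000229). Ccl2, which attracts monocytes, was at 723, 336 and 421 against 114, 37 and 28 (3.22, SE 0.47, limma adjusted p = 9.21e-05), and Ccl7 at 353, 228 and 340 against 69, 18 and 46 (2.93, SE 0.56, limma adjusted p = 0.00153). In these 3 chemokines every heart library lay above every kidney library. Il6 was at 834, 801 and 1197 against 177, 46 and 257 (2.85, SE 0.81, limma adjusted p = 0.0323), and missed the threshold without heart 1, heart 3, kidney 1 or kidney 2 (adjusted p = 0.058, 0.107, 0.0587 and 0.124). Cxcl13, a B cell chemokine, was at 0 in heart and 10, 38 and 5 in kidney (limma adjusted p = 0.00197). With the 6 libraries alone Ccl2, Ccl7 and Cxcl13 missed it (adjusted p = 0.0568, 0.0625 and 0.0547).

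Of 31 immediate early and stress genes 4 were higher in heart and none in kidney (median 1, with 27 near the ceiling). The called share was 12.9%, beside 9.11% of all tested genes. Maff was at 923, 811 and 882 in heart and 371, 121 and 149 in kidney (2.2, SE 0.44, limma adjusted p = 0.00215; 0.0627 with the 6 libraries alone). Klf4, which represses contractile genes in cultured smooth muscle, was at 1602, 2513 and 2039 against 796, 700 and 922 (1.33, SE 0.28, limma adjusted p = 0.00418). Egr2 was at 2616, 3033 and 2233 against 584, 823 and 1018 (1.72, SE 0.42, limma adjusted p = 0.0132; 0.0741 without kidney 1), and Klf6 at 2844, 2638 and 3195 against 2112, 1443 and 1787 (limma adjusted p = 0.0298). Klf6 missed the threshold without heart 1, heart 3, kidney 2 or kidney 3 (adjusted p = 0.0567, 0.11, 0.106 and 0.0732). Egr1 and Nr4a1, the genes of highest mean, were dominated by heart 3: Egr1 was at 5287, 4666 and 26339 against 2782, 3954 and 6627 (limma adjusted p = 0.148). The time from dissection to lysis is not given in the sources used here, and its part in these genes was not tested. Without heart 2 the list's count higher in heart was 14.

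Shares called among interferon response, clock, fatty acid, glycolysis and oxidative phosphorylation genes were 6.45%, 10.5%, 22.7%, 12.5% and 2.94%, beside 9.11% of all tested genes. Each of these calls except Fabp5, Plin2 and Angptl4 was lost when some library was left out. Of 31 interferon response genes, Irf1 (2648, 2110 and 6650 in heart, 1288, 1094 and 1323 in kidney; limma adjusted p = 0.0427) and Oas2 (103, 105 and 170 against 27, 18 and 0; limma adjusted p = 0.0298) were higher in heart. Without heart 3 their adjusted p was 0.229 and 0.0947, and without kidney 3 it was 0.091 and 0.178; Irf1 also missed the threshold without kidney 1 or 2 (0.0999 and 0.0953) and Oas2 without heart 1 (0.0515). Of 19 clock genes, Nfil3 and Bhlhe40, transcriptional repressors, were higher in heart (limma adjusted p = 0.0392 and 0.0279). Without heart 3 they stood at 0.164 and 0.0756, without kidney 2 at 0.0564 and 0.1, and without kidney 3 at 0.132 and 0.0661; Nfil3 also missed without heart 1 or kidney 1 (0.0657 and 0.0897), and Bhlhe40 without heart 2 (0.0668). Medians of the lists were 0.16 and -0.99.

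Of 22 fatty acid genes 3 were higher in heart and 2 in kidney (median 0.1). Fabp5, a fatty acid-binding protein, was at 338, 322 and 170 in heart and 41, 55 and 41 in kidney (2.52, SE 0.4, limma adjusted p = 0.000218). Plin2, a lipid droplet coat, was at 1301, 1121 and 1116 against 564, 804 and 288 (limma adjusted p = 0.00654; 0.216 with the 6 libraries alone). Cd36, the fatty acid translocase and the list's gene of highest mean, was at 4404, 3862 and 5096 in heart and 359, 236 and 514 in kidney (3.65, limma adjusted p = 0.0718), groups that lay far apart without passing. Angptl4, an inhibitor of lipoprotein lipase, was at 58, 65 and 0 against 359, 341 and 544 (limma adjusted p = 0.00574; 0.26 with the 6 libraries alone). Ppargc1a, a coactivator of mitochondrial genes, was at 107, 79 and 0 against 604, 454 and 527 (limma adjusted p = 0.0192), and missed the threshold without heart 3, kidney 1 or kidney 3 (adjusted p = 0.0582, 0.0661 and 0.0596). Acadm, of fatty acid oxidation, was at 2148, 1709 and 3665 against 1296, 1500 and 1322 (limma adjusted p = 0.0255), and missed it without heart 3, kidney 1 or kidney 3 (adjusted p = 0.138, 0.088 and 0.0798).

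Glycolysis and hypoxia genes gave 3 higher in heart and none in kidney of 24 (median 0.65), namely Pkm, Ldha and Hk2 (limma adjusted p = 0.0489, 0.0374 and 0.0458). Without heart 2 the number higher in heart was 6. All of them missed the threshold without heart 3 (adjusted p = 0.24, 0.186 and 0.175), and Pkm read 2530, 2200 and 6811 in heart against 1344, 1750 and 2185 in kidney. They also missed it without kidney 3 (adjusted p = 0.0505, 0.0523 and 0.175). Pkm and Ldha missed it without kidney 1 (adjusted p = 0.212 and 0.185), Pkm and Hk2 without kidney 2 (adjusted p = 0.0834 and 0.106), and Hk2 without heart 1 (adjusted p = 0.0608). Of 34 nuclear oxidative phosphorylation genes 26 were near the ceiling, the median was 0.81, and 1 passed, higher in heart. Over the fits that left out 1 library, the list's count ran from 0 to 25, the highest without heart 2.

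Of 26 cell cycle genes 1 passed in each direction (median -1.28), 7.69% of the list beside 9.11% of all tested genes. Cenpa, the histone variant of centromeres, was at 89, 67 and 0 in heart and 1646, 872 and 1288 in kidney (-6.07, SE 1.22, limma adjusted p = 0.00244; 0.183 with the 6 libraries alone). Mki67, the usual marker of cycling cells, named after its values were seen, was nevertheless at 0, 0 and 8 in heart and 40, 13 and 0 in kidney (limma adjusted p = 0.325). Ccnd2, cyclin D2, was at 3111, 3748 and 6989 against 2142, 2064 and 2358 (0.99, SE 0.23, limma adjusted p = 0.00837; 0.233 with the 6 libraries alone). All 4 tested Y-linked genes were above 0 in all 6 libraries; none passed in limma, edgeR or DESeq2 (median -0.64; 0 at an unadjusted p under 0.05 in limma), and Xist was at 0 in 5 libraries and at 8 in kidney 2.

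Genes that both arteries used gave the differences least exposed to values near 0. Taking passing genes with at least 50 units of signal in each of the 6 libraries, a log2 fold change of at least 1 and separate groups, 126 were higher in heart and 79 in kidney. The number of tested genes that met the signal condition is not given here. Of the 1154 genes higher in kidney, 952 were at 0 in heart 3 and could not enter, against 3 of the 387 higher in heart. Among all tested genes, without the signal condition, the groups did not overlap in 9.19% with heart higher and 15.1% with kidney higher. Toward heart, of the genes the naming rule took, Wnt5b was followed by Tcf15 and then by Fgl2 and Ccn3, both at 3.09. Tcf15, a basic helix-loop-helix factor of endothelium and mesoderm, was at 1340, 1034 and 2079 in heart and 207, 141 and 113 in kidney (3.25, SE 0.65, limma adjusted p = 0.00242), and Fgl2, a prothrombinase, at 4441, 4250 and 7701 against 1184, 420 and 474 (3.09, SE 0.43, limma adjusted p = 4.59e-05). Tnfaip6, a hyaluronan-binding protein induced in inflammation, was at 728, 918 and 631 against 125, 74 and 155 (2.72, SE 0.55, limma adjusted p = 0.0025). Tspan13, a tetraspanin, was at 2123, 1318 and 1100 against 183, 587 and 277 (2.23, SE 0.37, limma adjusted p = 0.000421; 0.0831 with the 6 libraries alone). Oxnad1 and Rasd2 rested largely on heart 3: Oxnad1 was at 1751, 1342 and 4700 against 641, 270 and 269 (limma adjusted p = 0.0436) and Rasd2 at 203, 295 and 1246 against 68, 71 and 133 (limma adjusted p = 0.0352). Without heart 3 they stood at 0.192 and 0.188. Oxnad1 also missed the threshold without heart 1, kidney 2 or kidney 3 (adjusted p = 0.0614, 0.102 and 0.141), and Rasd2 without kidney 1 or 2 (adjusted p = 0.126 and 0.0824).

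Toward kidney, after P2rx1, stood Tes and a set of adhesion and signalling genes. Tes, testin, a focal adhesion protein, was at 239, 177 and 113 in heart and 1559, 1565 and 1188 in kidney (-3.07, SE 0.27, limma adjusted p = 1.19e-07). Pcdh7, a protocadherin, was at 89, 132 and 73 against 662, 416 and 639 (-2.55, SE 0.3, limma adjusted p = 6.47e-06), and Rai14, an actin-binding protein, at 79, 196 and 81 against 929, 521 and 676 (-2.66, SE 0.61, limma adjusted p = 0.00775). In these 3 genes the groups did not overlap. F3, tissue factor, the initiator of clotting, was at 408, 655 and 154 against 1340, 2132 and 2568 (-2.49, SE 0.61, limma adjusted p = 0.0132), and missed the threshold without heart 3 (adjusted p = 0.0917) or kidney 3 (adjusted p = 0.0633). Cyp1b1, a cytochrome P450 of steroid and fatty acid metabolism, was at 59, 202 and 154 against 638, 772 and 1220 (limma adjusted p = 0.0106), and Sorl1, a sorting receptor, at 148, 268 and 372 against 1405, 928 and 1678 (limma adjusted p = 0.0113). Both missed it without heart 1 (adjusted p = 0.0548 and 0.0529) or kidney 3 (adjusted p = 0.0576 and 0.0562).

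Genes of heart muscle were present in the heart libraries. Of 18 cardiomyocyte markers tested, 8 were higher in heart (44.4%, beside 2.29% of all tested genes) and none in kidney (median 3.77). Higher in kidney were 2 without heart 2 and 1 without kidney 2. The summed signal of the markers was 4575 to 7709 in heart and 1278 to 2808 in kidney. Tnnt2, cardiac troponin T, was at 1573, 1303 and 1537 in heart and 4, 20 and 6 in kidney (7.34, SE 1.28, limma adjusted p = 0.000607). Myl2, the ventricular light chain, was at 169, 263 and 421 in heart and at 0 in kidney, at least 126-fold higher (limma adjusted p = 4.41e-08), and Csrp3, a muscle LIM protein, at 102, 189 and 283 against 0 in kidney, at least 85-fold higher (limma adjusted p = 0.00475). Mb, myoglobin, was at 207, 503 and 315 against 1, 3 and 0 (limma adjusted p = 0.0132; 0.0605 without kidney 3), and Tnni3, cardiac troponin I, at 391, 732 and 680 against 8, 6 and 9 (6.08, SE 0.96, limma adjusted p = 0.000228). Myoz2, a Z-disc protein outside the list, was at 110, 366 and 121 against 1, 0 and 0 (limma adjusted p = 4.44e-06). Myh6, the cardiac myosin heavy chain, named after its values were seen, did not follow: it was at 66, 321 and 186 in heart and 2028, 310 and 1295 in kidney (-2.55, limma adjusted p = 0.0756). The part of cardiomyocyte RNA in the other genes higher in heart was not tested.

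Of 18 pericyte markers 4 were higher in heart and 1 in kidney, 27.8% of the list beside 9.11% of all tested genes. The median was 1.11, or 0.66 without heart 3, and 12 of the 18 were near the ceiling. Their sums were 29116, 30892 and 65622 in heart and 16005 to 32310 in kidney. Heart 1 and 2 thus lay within the kidney range, and heart 3 alone lay above it. Steap4, a metalloreductase, was at 3386, 3375 and 2750 in heart and 567, 449 and 719 in kidney (2.47, SE 0.59, limma adjusted p = 0.0099). Art3, an ADP-ribosyltransferase-like protein, was at 1606, 1329 and 1594 against 235, 293 and 221 (2.6, SE 0.5, limma adjusted p = 0.00178), and Colec11, a collectin, at 1783, 1404 and 1141 against 39, 139 and 180 (3.82, SE 0.71, limma adjusted p = 0.00125). The 4th was P2ry14. Ggt1, a gamma-glutamyltransferase that the proximal tubule makes in quantity, was at 0 in heart and 336, 170 and 502 in kidney, at least 34.5-fold higher (limma adjusted p = 2.78e-06). Kcnj8, a pericyte potassium channel subunit, was at 1242, 1494 and 623 against 319, 440 and 362 (limma adjusted p = 0.0612), and Vtn at 2102, 1736 and 2225 against 270, 129 and 230 (limma adjusted p = 0.0512); both had separate groups and did not pass.

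Of 18 endothelial markers 1 passed, Plvap, the diaphragm protein of fenestrated endothelium, at 181, 220 and 49 in heart and 1494, 2298 and 1603 in kidney (-3.81, SE 0.5, limma adjusted p = 2.3e-05); Pecam1 was at 1729, 1951 and 2119 against 740, 2206 and 1068, and the sums overlapped, at 15289 to 16755 in heart and 9678 to 19185 in kidney (median 0.66). Of 16 fibroblast and mesothelial markers, Dpt was higher in heart (1051, 1774 and 1141 against 196, 449 and 627; limma adjusted p = 0.00312, 0.153 with the 6 libraries alone), and sums were 19125 to 57483 against 9956 to 24102 (median 0.02). Of 9 mesangial and renin cell markers, Ren1, Akr1b7 and Gata3 were higher in kidney and Tbx18 in heart (0.0702 for Tbx18 without kidney 2; median -0.82; sums 5981 to 11900 in heart and 10661 to 16698 in kidney). Of 11 tested immune markers Csf1r, the receptor of macrophages, was higher in kidney (4, 2 and 0 against 71, 134 and 56; limma adjusted p = 0.000597; 3 markers were higher there without kidney 3), while Ptprc was at 0 in heart and 21, 29 and 0 in kidney (median -1.04, -0.84 with bounds; sums 169 to 274 and 128 to 869). Of 11 glial and neuronal markers S100b was higher in heart (71, 85 and 81 against 5, 25 and 2; limma adjusted p = 0.00433, 0.197 with the 6 libraries alone), with sums of 2613 to 2799 and 1103 to 2006 (median 0.25), and of 5 tested erythroid and adipocyte markers none passed in limma, edgeR or DESeq2 (median 0.02; 0 at an unadjusted p under 0.05 in limma; sums 8 to 177 and 35 to 188). Shares called were 5.56% (endothelial), 6.25% (fibroblast and mesothelial) and 9.09% (immune, and glial and neuronal), beside 9.11% of all tested genes. Of the mesangial and renin cell markers 44.4% were called. The part of these cell types in the results above was not tested.

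**Figure D5:**
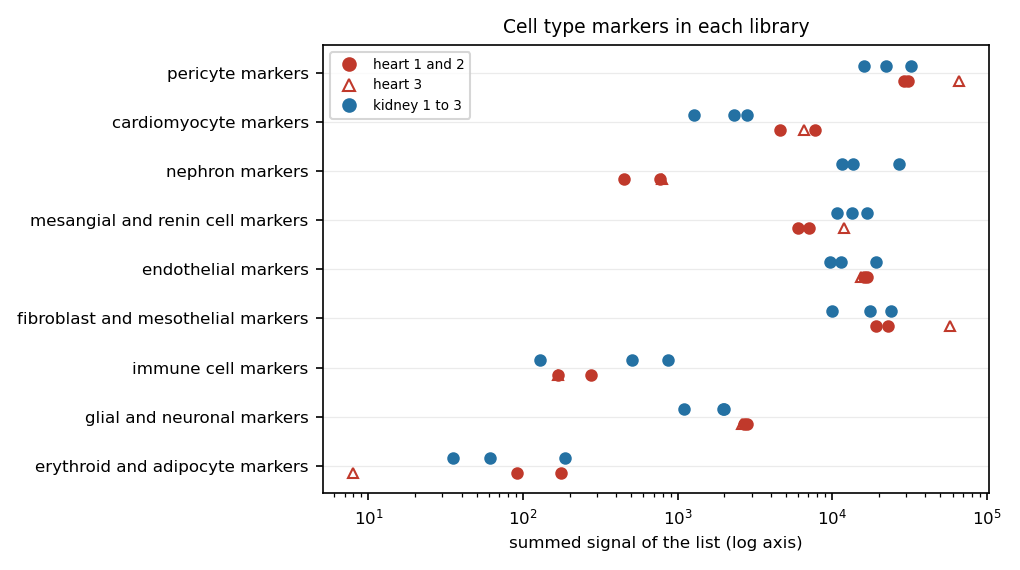
Summed signal of each cell type marker list in the 6 libraries, on a log axis, with filled red circles for heart 1 and 2, open red triangles for heart 3 and blue circles for kidney. Nephron markers sum to 446 to 792 in heart and 11612 to 26928 in kidney, cardiomyocyte markers to 4575 to 7709 in heart and 1278 to 2808 in kidney, and endothelial sums overlap.

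The remaining genes that the naming rule took toward heart were Rhox5 and Pcsk1. Rhox5, an X-linked homeobox gene best known from the reproductive tract, was at 267, 144 and 154 in heart and at 0 in kidney, at least 83.7-fold higher (limma adjusted p = 1.81e-07). Pcsk1, a prohormone convertase, was at 565, 772 and 453 against 25, 6 and 0 (6.69, SE 1.37, limma adjusted p = 0.003). At the other end stood the 6 genes with a mean of at least 1000 and the narrowest 95% intervals that span 0. Their fold changes are the most tightly estimated and not the smallest. Aplp2, named after its values were seen, had a log2 fold change of 0.021. Pitpna, a phosphatidylinositol transfer protein, was at 2073, 1759 and 1950 in heart and 1705, 1781 and 1644 in kidney, with a 95% interval of the log2 fold change from -0.1 to 0.44. Surf4, a cargo receptor of the endoplasmic reticulum, was at 1897, 1889 and 1626 against 1485, 1796 and 1791 (-0.19 to 0.38), and Cers2, a ceramide synthase, at 1768, 1648 and 1683 against 1317, 1690 and 1483 (-0.07 to 0.45). Smim14, Ctnna1 (alpha-catenin) and Csnk1a1 (a casein kinase) completed the set, with intervals of -0.18 to 0.39, -0.25 to 0.31 and -0.12 to 0.45.

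Set beside the means of the other 5 tissues on the log2 scale, most genes higher in heart were ones in which heart lay farther from the rest (250 of 387), whereas in the other 137 kidney lay farther or as far. Genes higher in kidney were divided more evenly: kidney lay farther from the other tissues in 544 and heart as far or farther in 610, and heart was at 0 in all 3 libraries in 417 of the 1154. The heart mean includes the shallow heart 3, which was at 0 in 952 of the 1154. The same division over all tested genes is not given here. Of the 48 genes named for the largest differences, 42 passed without heart 3, 48 passed in edgeR on rebuilt reads and 40 passed with the 6 libraries alone, and 29 were near the ceiling.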

How the data were processed

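RNA-seq libraries of sorted arterial smooth muscle were read from 1 table with 28099 genes in 22 columns, 1 per library. Its deposited values are a signal: whole numbers that the authors made by scaling read counts per library and rounding. STAR 2.7.10a, featureCounts 2.0.4, Trimmomatic 0.39, DESeq2 1.36.0, DESeq and Picard 3.0.0 are listed, without their roles, per the submitters' processing notes, as is the mouse build mm39. Reads were rebuilt by dividing each library by the worth of 1 read, a step fitted to the spacing of its values. In heart 1 and 2 and kidney 1 and 2 the fitted step is below 1. More than 1 read count can then round to the same value, and the rebuilt reads are estimates.

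The main test was limma 3.58.1 (trend, R 4.3.3) on log2(signal + 1) over all 22 libraries in 7 tissue groups, for genes that reached 10 units in 3 or more libraries, heart minus kidney, Benjamini-Hochberg adjusted. edgeR 4.0.16 and DESeq2 1.42.0 on rebuilt reads were alternatives. Tests were checked on simulated data. Exonic lengths came from GENCODE M21 (GRCm38), for 96.2% of genes, and promoter windows from RefSeq GRCm38.p6. Deep libraries resolve lower signals: 3 reads are worth 24.3 units in heart 3 and less in every other library of the pair.

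The members and gene lists were chosen with earlier results of these data known. Named were the 12 passing genes with the largest difference in each direction, the 12 largest in each direction among genes used by both tissues, members of the gene lists (any of a list under 20; otherwise up to 5 passing by adjusted p and the 2 of highest mean), the 6 smallest differences among high genes, and Acta2, Myh11 and Cspg4. Others are said to be named after their values were seen. Some genes that the rule took are not reported here.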

Additional observations from a re-analysis of the deposited data

How the results depend on the processing

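Against 1541 genes differing (387 higher in heart, 1154 higher in kidney), 686 (101 and 585) passed with the 6 libraries alone, 2789 (861 and 1928) without aorta, 2619 (1033 and 1586) with array weights and 2401 (713 and 1688) in DESeq2. A fit of only the genes under the ceiling, a smaller set, called 152 higher in heart. Of the 387 in the main fit, 221 were near the ceiling and did not enter it. Chosen after seeing the data, edgeR without heart 3 called 982 (283 and 699), and the fit without heart 3 and aorta 871 higher in heart. Leaving out 1 library gave 1000 to 2464 genes, 185 to 628 higher in heart and 770 to 1836 higher in kidney: 1530 without heart 1, 2464 without heart 2, 1081 without heart 3, 1027 without kidney 1, 1646 without kidney 2 and 1000 without kidney 3. The share higher in heart was 25.1% in the main fit; the cause of these shifts was not tested.

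Of 4078 values for 199 gene results under 21 settings, 3607 kept their direction and side of the threshold, 457 kept the direction but not the threshold, 3 gained it and 11 reversed. With the 6 libraries alone, 83 of the 190 that had passed in the main fit missed it. Ctnna1 ran from -0.04 (without heart 1) to 0.11 (without heart 3) and turned to -0.05 with median-of-ratios scaling and in DESeq2. Csnk1a1 turned to -0.0 with array weights and -0.01 in edgeR without heart 3. Cspg4 ran from -0.97 (without kidney 2) to 1.67 (without kidney 3) and turned to -0.01 with array weights, -0.39 in edgeR, -0.49 in DESeq2 and -0.44 in edgeR without heart 3, and Myh11 to -0.09 in the last. None of these had passed.

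Same-numbered libraries deviated together little, with correlations of -0.046, -0.047 and 0.052 across genes. Heart 1 correlated best with kidney 2 (0.147). These are deviations from means of 3 libraries that include the shallow heart 3. They cannot tell whether same-numbered libraries share an animal. With a replicate block 1250 genes passed (283 higher in heart and 967 in kidney). Depth limits low genes in heart 3, where 3 reads are 24.3 units of signal.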
